A study of Schizosaccharomyces pombe with 16 samples.

Results

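A set of 51 transcription units of fission yeast was followed over 9 mutants, chosen because their RNA was raised when the nuclear exosome or the MTREC complex was impaired. Units were defined from the control channel alone, as stretches of 6 or more successive tiling probes on one strand with a log2 signal above about 7.9, after averaging the 16 arrays and taking a running median over 5 probes. The high-resolution part of the array held 2540 such units. The members were the units whose log2 ratio, mutant over control, was at least 0.8 in *rrp6Δ*, *red1Δ* and *pab2Δ* and at least 0.4 in *mtl1-17*, so the ratios of these 4 mutants chose them. Odd and even probe numbers were taken as the 2 strands. The control signal of a probe correlated with that of the next probe of the same parity by 0.74 and with that of the adjacent probe of the other parity by −0.32, as a description across probes. Since no file links a probe to a gene, no gene is named and each unit is called by its first and last probe number.

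The nuclear exosome degrades RNA from its 3′ end, and Rrp6 is its nuclear 3′-to-5′ exonuclease. MTREC, built around the helicase Mtl1 and the zinc-finger protein Red1, brings RNA to the exosome. Pab2 is a nuclear poly(A)-binding protein, and Iss10 links Red1 to Mmi1, the YTH-family protein that recognises meiotic transcripts in vegetative cells and marks them for elimination. Rmn1 is an RNA-binding protein associated with the complex. Cid14 is the poly(A) polymerase of the TRAMP complex, another exosome cofactor, and Sen1 is an RNA helicase. RNAs that the exosome and MTREC hold down include meiotic mRNAs and noncoding RNAs.

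The strains tested were *rrp6Δ*, *red1Δ*, *pab2Δ*, *mtl1-17*, *iss10Δ*, *cid14Δ* and *sen1Δ*, with 2 arrays each, and *rmn1Δ* and *mmi1Δ mei4-P572*, with 1 array each. *mtl1-17* was set against *mtl1-flag* and the *mmi1Δ mei4-P572* strain against *mei4-P572*, so that both sides of the second comparison carried the *mei4* mutation. All other mutants were set against wildtype. The wildtype strain was the same one for *red1Δ*, *iss10Δ*, *cid14Δ* and *rmn1Δ*, and different ones served *rrp6Δ*, *pab2Δ* and *sen1Δ*. Cells were grown at 30 °C, and the temperature-sensitive *mtl1-17* cells at 23 °C with a shift to 37 °C for 4 h, and whether *mtl1-flag* was shifted is not stated separately. RNA was depleted of ribosomal RNA before cDNA synthesis.

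Mutant cDNA carried Cy5 and control cDNA Cy3 on all 16 arrays. A dye bias of a probe therefore cannot be told apart from a change in a mutant, while it cancels in a difference between mutants. Between 49.99% and 84.7% of the probes were well above background in the mutant channel, and between 49.1% and 77.4% in the control channel. Precision is set by the small number of arrays. The 2 arrays of a mutant are biological replicates by the study's description. The p-values use one spread per unit, pooled over the 7 mutants with 2 arrays, and not the spread of the tested mutant alone. The 2 log2 ratios of a member differed by a median of 0.55 in *iss10Δ*, 0.33 in *cid14Δ* and 0.31 in *sen1Δ*. In the 4 choosing mutants this median was between 0.16 and 0.27, so the pooled spread can be too small for *iss10Δ*. In bulk RNA a higher level per cell and a larger share of cells with the RNA cannot be told apart. For the same lack of gene positions, the mutated genes were not examined as a check of the labels.

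All 51 members were above 0 on each of the 8 arrays of the 4 choosing mutants. The choice, made on the mean of each mutant, favours this, and these values are given as a description. The median log2 ratio of the members was 1.53 in *rrp6Δ*, where all units had −0.058. For *red1Δ* the medians were 1.95 over the members and −0.047 over all units, and for *pab2Δ* 1.34 over the members and −0.081 over all units. The members had a median of 0.91 in *mtl1-17* and all units one of 0.0085. The order of the medians, *red1Δ* over *rrp6Δ* over *pab2Δ* over *mtl1-17*, was that of 15 of the 51 members. *red1Δ* was the highest of the 4 for 30 members, *rrp6Δ* for 12, *pab2Δ* for 7 and *mtl1-17* for 2. *mtl1-17* was the lowest for 43. A log2 ratio of 1, a doubling, was reached by 48 members in *rrp6Δ* (6.26% of all units), 47 in *red1Δ* (5.71%), 43 in *pab2Δ* (5.47%) and 16 in *mtl1-17* (0.906%). Requiring the limits on each array in place of the means would have kept 42 of the 51.

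**Figure D1:**
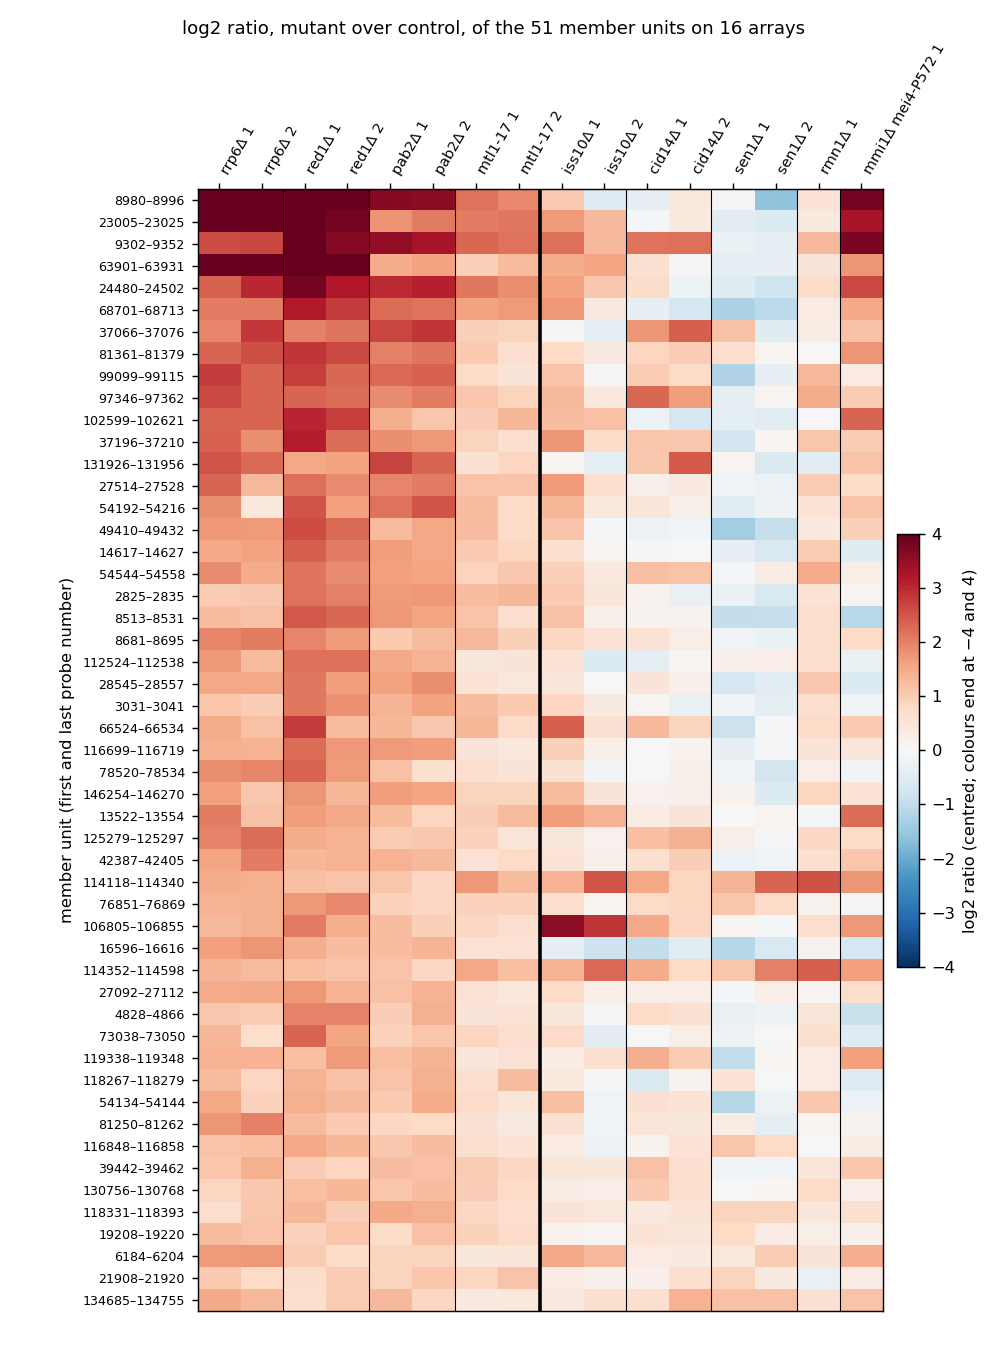
Colours give the log2 ratio, mutant over control, of each of the 51 member units (rows, by first and last probe number, ordered by the mean over the 4 mutants that chose them) on each of the 16 arrays (columns; thin lines divide mutants). Left of the thick line, in the mutants that chose the members, all values are above 0, which the choice favours. Right of it, rows 8980 to 8996 and 106805 to 106855 show how differently members behaved in *iss10Δ* and *mmi1Δ mei4-P572*.

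The unit of probes 8980 to 8996 had the highest mean over the 4 mutants. Its log2 ratio was 4.05 and 4.38 on the *rrp6Δ* arrays, 5.73 and 4.95 on the *red1Δ* arrays, 3.63 and 3.60 on the *pab2Δ* arrays and 2.16 and 1.92 on the *mtl1-17* arrays. In *mmi1Δ mei4-P572* it was 3.82. In the other mutants its arrays scattered around the control level. The ratios were 1.04 and −0.53 in *iss10Δ*, −0.33 and 0.42 in *cid14Δ*, −0.08 and −1.61 in *sen1Δ* and 0.54 in *rmn1Δ*. The arrays of *iss10Δ* and of *cid14Δ* lay on both sides of 0, and neither mean passed the test (limma, adjusted p = 0.92 and 0.95).

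For the unit of probes 23005 to 23025 the ratios were 4.02 and 4.24 in *rrp6Δ*, 4.22 and 3.81 in *red1Δ*, 1.79 and 2.08 in *pab2Δ*, with 2.03 and 2.12 in *mtl1-17*. Probes 63901 to 63931 gave 4.09 and 4.48 in *rrp6Δ*, 4.64 and 4.46 in *red1Δ*, 1.49 and 1.62 in *pab2Δ*, with 0.96 and 1.26 in *mtl1-17*. In both units the arrays of *pab2Δ* lay below all those of *rrp6Δ* and *red1Δ*. The next pair did not share this gap. Probes 9302 to 9352 had 2.61 and 2.67 in *rrp6Δ*, 4.03 and 3.66 in *red1Δ*, 3.56 and 3.29 in *pab2Δ*, with 2.30 and 2.18 in *mtl1-17*. Probes 24480 to 24502 had 2.36 and 3.01 in *rrp6Δ*, 3.84 and 3.20 in *red1Δ*, 2.97 and 3.11 in *pab2Δ*, with 2.10 and 1.86 in *mtl1-17*. In 9302 to 9352 both *pab2Δ* arrays lay above both *rrp6Δ* arrays, while in 24480 to 24502 the arrays of these mutants overlapped.

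At the edges of the limits the choice was close. In *rrp6Δ*, the member nearest its limit, 118331 to 118393, had a mean of 0.91, and the unit just outside, 40436 to 40452, had 0.74. In *red1Δ* these were 0.83 for 134685 to 134755 and 0.78 for 69192 to 69204. In *pab2Δ* they were 0.82 for 81250 to 81262 and 0.78 for 43697 to 43827. Probes 5624 to 5656 missed membership with 0.3997 in *mtl1-17*, where 134685 to 134755 had 0.41. Of all units, 28 missed only the *mtl1-17* limit, 21 only that of *rrp6Δ*, 20 only that of *pab2Δ* and 2 only that of *red1Δ*.

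The members were short. They held between 6 and 124 probes of their strand with a median of 9, against a median of 20 for all units. Their control signal, taken from the arrays of the mutants that did not choose them, had a median of 8.84 on the log2 scale, against 10.05 for all units. They were still measurable, since a median of 94.7% of their control spots was well above background, against 98.0% for all units. Of the members, 20 lay on odd probes and 31 on even probes, against 1297 and 1243 of all units. How many close pairs the same number of units picked at random would give was not computed, and whether neighbouring members belong to the same transcript was not tested. Among successive members, 8 pairs lay within 250 probe numbers of each other, the closest being 114118 to 114340 and 114352 to 114598, 12 numbers apart.

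This closest pair stood apart from the rest. They were the longest members, with 112 and 124 probes, and the brightest, with a mean control signal of 14.6 and 14.1 on the log2 scale. They were above 0 on all 16 arrays, also in *sen1Δ*, where the log2 ratio of 114118 to 114340 was 1.35 and 2.32. Ribosomal RNA was depleted before labelling, and a unit of remaining ribosomal RNA would carry the yield of that step in its ratio. Whether these bright units are ribosomal RNA was not tested, and their values in every mutant are given with that limit. Counts are therefore also given without these 2 units, a choice made after the data were seen.

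**Figure D2:**
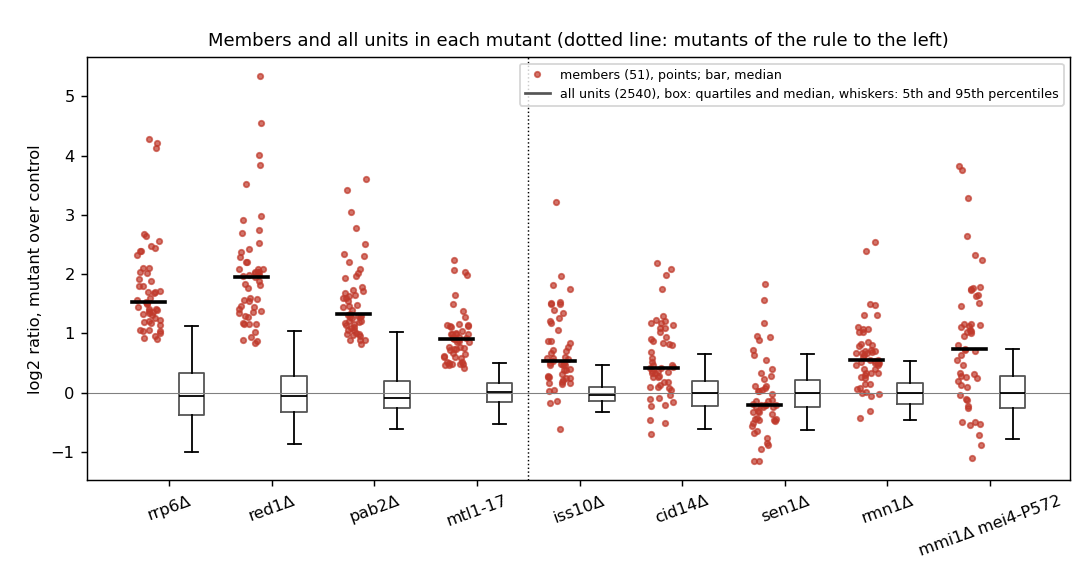
Points give the log2 ratio, mutant over control, of the 51 members in each mutant (mean of the arrays) with their median as a bar, and boxes give all 2540 units. The members were chosen on the 4 mutants left of the dotted line; to the right of it, their medians lie above those of all units in *iss10Δ*, *cid14Δ*, *rmn1Δ* and *mmi1Δ mei4-P572*, and below in *sen1Δ* (−0.20 against −0.0093).

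The raised signal of the members extended beyond them on the same strand, and to one side more than the other. For each side, up to 8 probes that belonged to no other unit were averaged, over the 4 choosing mutants. For members of odd probes, the flank of higher probe numbers had a median log2 ratio of 1.34 and that of lower numbers 0.70, and the higher-numbered side had the larger ratio in 16 of the 19 members with both flanks. For members of even probes the sides were turned round. The flank of lower numbers had a median of 1.11 and that of higher numbers 0.62, with the larger ratio on the lower-numbered side in 22 of 29. In *rrp6Δ* a flank was also raised around all units. On odd probes, the median was 1.83 for the members and 0.63 for all units on the higher-numbered side, and 1.00 for the members and 0.43 for all units on the lower-numbered side.

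Within the members the medians in *rrp6Δ* and *red1Δ* sloped the same way. Each unit was divided into 3 parts along the probe number. For odd probes in *red1Δ* the median was 1.78 in the lowest-numbered part, 2.02 in the middle and 2.42 in the highest-numbered part. For even probes it was 2.20, 1.58 and 1.42. In *mtl1-17* the odd-numbered members had 0.49, 0.91 and 1.03, and the even-numbered ones were nearly level, with 0.95, 0.81 and 0.87. In *pab2Δ* the odd-numbered members had 1.32, 1.36 and 2.10, and the even-numbered ones 2.12, 1.11 and 1.26. Of the 51 members, 42 were at 0.4 or more in every part, as a mean of the 4 mutants, and 22 had parts more than 1 log2 unit apart. The whole run was thus raised in most members, and in others the mean came mostly from one end. Probes 39442 to 39462, a unit singled out after its values were seen, had 2.66 in the lowest-numbered part and 0.18 in both others.

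**Figure D3:**
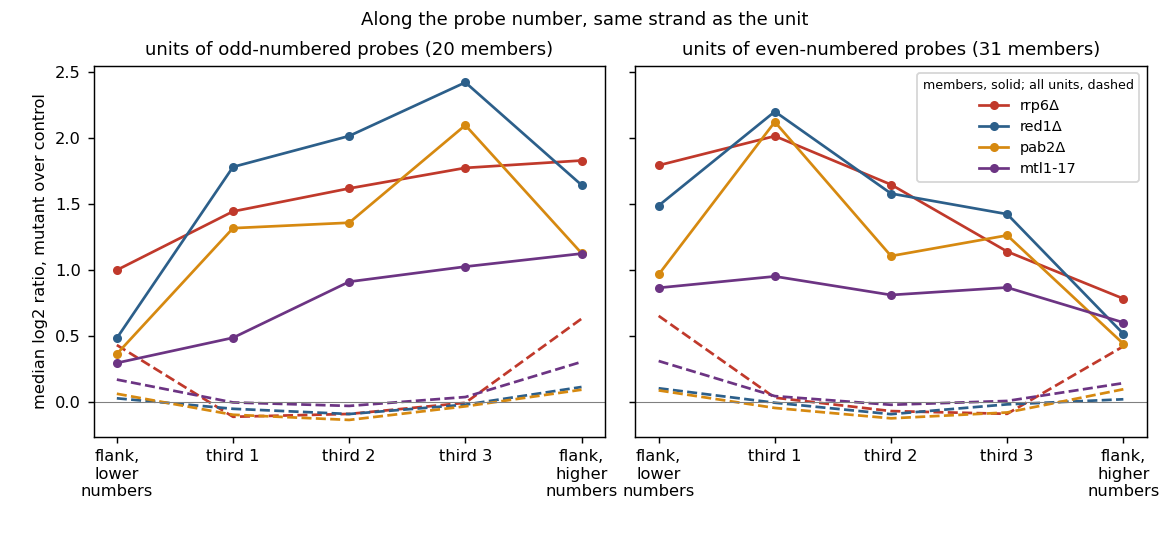
Lines give the median log2 ratio, mutant over control, along the probe number on the strand of the unit, in the 4 mutants that chose the members, for the flanks and the 3 parts of the members (solid) and of all units (dashed). In *rrp6Δ* and *red1Δ*, members of odd probes (20) had larger ratios toward higher numbers and members of even probes (31) toward lower numbers, while all units lay near 0 inside and were raised mainly in the *rrp6Δ* flanks.

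*iss10Δ*, *cid14Δ* and *sen1Δ* took no part in the choice of members, and their ratios were tested against 0 with limma over all 2540 units. *iss10Δ* and *cid14Δ* share their control strain with *red1Δ*, and whether the same RNA was used is not stated. Slides were also shared with choosing arrays. *iss10Δ* replicate 1 lay with *red1Δ* replicate 1, and *iss10Δ* replicate 2 with *mtl1-17* replicate 1. *cid14Δ* replicate 2 lay with *pab2Δ* replicate 1 and *mtl1-17* replicate 2. No *sen1Δ* array shared a slide with a choosing array. Arrays of the same slide had a correlation of 0.51 after the mutants were fitted. The tests of *iss10Δ* and *cid14Δ* are thus not fully separate from the choice. In *iss10Δ*, 14 of the 51 members (27.5%) were higher than in the control and 0 lower, where 1.22% and 0.157% of all units were called. At an unadjusted p under 0.05, limma gave 35 members higher and 1 lower, where 5.31% and 3.03% of all units passed. Without the closest pair, 12 were higher. The median of the members was 0.53, against −0.034 for all units. The 2 arrays differed in size. The median of the members was 0.86 on replicate 1 and 0.35 on replicate 2, and replicate 1 was the higher one for 46 members. It is the array that shared its slide with *red1Δ* replicate 1, itself the higher *red1Δ* array for 41 members. Whether the slide bears on this gap was not tested. Without replicate 2, 27 members were higher, and without replicate 1, 9.

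The strongest member in *iss10Δ* was the unit of probes 106805 to 106855. Its ratios of 3.57 and 2.86 in *iss10Δ* gave a mean of 3.22 ± 0.20 (SE of the fit, adjusted p = 5.1e-06). This was the highest value of any unit in *iss10Δ*, and it exceeded the ratios of the same unit in the choosing mutants, between 0.68 on an *mtl1-17* array and 2.07 on a *red1Δ* array. Probes 9302 to 9352 had 2.19 and 1.30 (mean 1.75 ± 0.18, adjusted p = 0.00025), probes 13522 to 13554 had 1.68 and 1.40 (1.54 ± 0.18, adjusted p = 0.00069), and probes 63901 to 63931 had 1.48 and 1.57 (1.52 ± 0.15, adjusted p = 0.00025). The closest pair had 1.41 and 2.52 (114118 to 114340, adjusted p = 0.0018) and 1.38 and 2.26 (114352 to 114598, adjusted p = 0.0015), the reverse of the order of the arrays in most members. The other 8 called members lay between 0.72 and 1.49.

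In *cid14Δ*, 21 members (41.2%) were higher and 1 was lower, where 7.87% and 6.69% of all units were called. Without the closest pair, 19 were higher. The median of the members was 0.42 and that of all units −0.0098. With either array left out, fewer members were called, 9 without replicate 1 and 12 without replicate 2. Probes 9302 to 9352 had 2.17 and 2.20 in *cid14Δ* (mean 2.19 ± 0.18, adjusted p = 3e-05), the closest agreement of the 2 arrays among the leading members. Probes 37066 to 37076 had 1.77 and 2.39 (2.08 ± 0.31, adjusted p = 0.0015), probes 97346 to 97362 had 2.29 and 1.66 (1.98 ± 0.21, adjusted p = 0.00018) and probes 131926 to 131956 had 1.07 and 2.44 (1.75 ± 0.26, adjusted p = 0.0015). In *iss10Δ*, 37066 to 37076 and 131926 to 131956 had means of −0.16 and −0.13, which did not pass the test (adjusted p = 0.94 and 0.95). The next were 125279 to 125297, with 1.19 and 1.41 (adjusted p = 0.00023), and 119338 to 119348, with 1.46 and 1.01 (adjusted p = 0.0035). The member that was lower, 16596 to 16616, had −0.96 and −0.44 in *cid14Δ* (mean −0.70 ± 0.17, adjusted p = 0.016).

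In *sen1Δ*, 9 members (17.6%) were higher and 5 (9.80%) were lower, where 6.65% and 5.35% of all units were called. Without the closest pair, 7 were higher. The median of the members was −0.20, and 26 members were below 0 on both arrays and 12 above. The split depended on the centring, since the mean over units and the median over all probes differed on these arrays (−0.13 and 0.25 on replicate 1, −0.065 and 0.089 on replicate 2). Without centring, 7 members were higher and 9 lower, where 34.4% of the calls over all units were higher, and with the median of all probes set to 0, 6 were higher and 14 lower, where 9.69% were higher. These shares compare with 55.4% in the reported fit. Without *sen1Δ* replicate 1, 4 members were higher and 0 lower. Without either *iss10Δ* array, 10 were lower.

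The closest pair led the members that were higher in *sen1Δ*, with 1.35 and 2.32 for 114118 to 114340 (mean 1.84 ± 0.27, adjusted p = 0.0018) and 1.12 and 2.02 for 114352 to 114598 (1.57 ± 0.24, adjusted p = 0.0023). Probes 134685 to 134755 had 1.18 on both arrays (adjusted p = 0.0019), probes 116848 to 116858 had 1.11 and 0.79 (adjusted p = 0.0034), probes 76851 to 76869 had 1.10 and 0.78 (adjusted p = 0.0025) and probes 118331 to 118393 had 0.88 and 0.90 (adjusted p = 0.0018). The arrays of these 4 units lay closer together than those of the closest pair. Of the members that were lower, 68701 to 68713 had −1.27 and −1.04 (mean −1.15 ± 0.24, adjusted p = 0.012), 49410 to 49432 had −1.38 and −0.91 (adjusted p = 0.012) and 8513 to 8531 had −0.96 and −0.93 (adjusted p = 0.0099). The last pair, 16596 to 16616 and 28545 to 28557, had means of −0.87 and −0.56 (adjusted p = 0.0089 and 0.037). Each of these 5 units was above 0.4 on all 8 arrays of the choosing mutants.

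**Figure D4:**
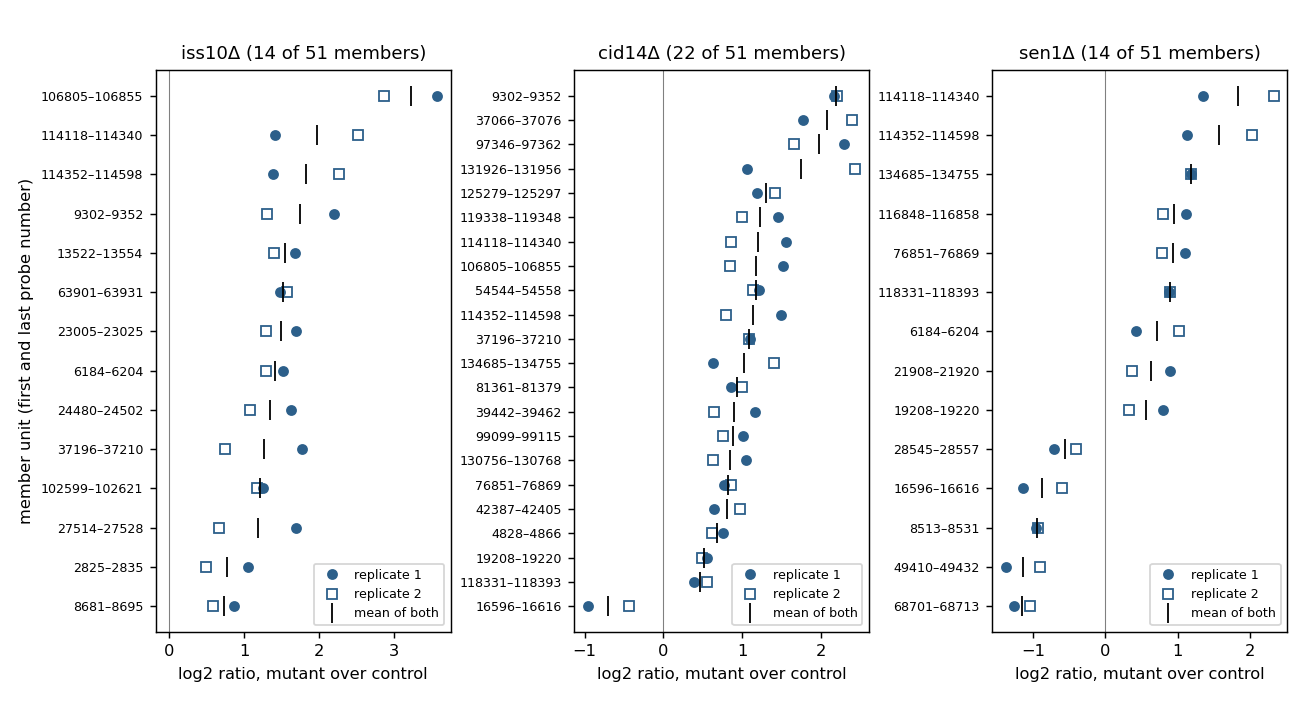
Symbols give the log2 ratio, mutant over control, on replicate 1 (filled circles) and replicate 2 (open squares), with the mean as a tick, for every member that passed the test in *iss10Δ* (14), *cid14Δ* (22) and *sen1Δ* (14). Both arrays lie on the same side of 0 for every unit drawn, and all 14 members called in *iss10Δ* lie above it.

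Differences between the mutants were tested in the same fit, where any shared dye bias drops out. Those from *sen1Δ* also hold any difference between its wildtype strain and that of *iss10Δ* and *cid14Δ*. Between *iss10Δ* and *cid14Δ*, 10 members differed, 7 of them higher in *iss10Δ* (1.50% of all units) and 3 lower (1.61%). The differences in favour of *iss10Δ* were largest for 106805 to 106855 (2.03 ± 0.29, adjusted p = 0.0057), 102599 to 102621 (1.67 ± 0.21, adjusted p = 0.0029) and 68701 to 68713 (1.57 ± 0.33, adjusted p = 0.034). Those in favour of *cid14Δ* were 37066 to 37076 (−2.24 ± 0.44, adjusted p = 0.026), 131926 to 131956 (−1.88 ± 0.37, adjusted p = 0.026) and 125279 to 125297 (−0.99 ± 0.20, adjusted p = 0.027). Against 0, 106805 to 106855 was called higher in both mutants and 68701 to 68713 was called in neither. Probes 102599 to 102621 were called in *iss10Δ* only, and the 3 units in favour of *cid14Δ* in *cid14Δ* only. The 10 differences were thus not all calls in only 1 of the mutants. The count was 4 without *cid14Δ* replicate 1, 3 without replicate 2, and 4 in a fit that also held a fixed term for the slide.

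The difference from *sen1Δ* was above 0 for 42 of the 51 members in *iss10Δ* and for 39 in *cid14Δ*, whether or not it passed the test. Between *iss10Δ* and *sen1Δ*, 16 members were higher in *iss10Δ* (2.68% of all units) and 1, 116848 to 116858, was lower (1.89%). The largest difference was again at 106805 to 106855 (3.19 ± 0.29, adjusted p = 0.00014), followed by 68701 to 68713 (2.21 ± 0.33, adjusted p = 0.0039) and 9302 to 9352 (2.06 ± 0.25, adjusted p = 0.00081). Between *cid14Δ* and *sen1Δ*, 16 members were higher in *cid14Δ* (3.70% of all units) and 0 lower (4.17%), or 2 lower by limma at an unadjusted p under 0.05, which 12.1% of all units passed. The largest differences were 2.49 ± 0.25 at 9302 to 9352 (adjusted p = 0.00035) and 2.12 ± 0.29 at 97346 to 97362 (adjusted p = 0.0014). Both counts rested on *sen1Δ* replicate 1. Without it, 6 members differed from *iss10Δ* and 5 from *cid14Δ*. Without *iss10Δ* replicate 2, 29 members differed between *iss10Δ* and *sen1Δ*, and without *cid14Δ* replicate 1, 5 differed between *cid14Δ* and *sen1Δ*.

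*mmi1Δ mei4-P572* and *rmn1Δ* had a single array, so their values have no replicate check. In *mmi1Δ mei4-P572*, 23 members (45.1%) had a log2 ratio of at least 1, where 2.24% of all units did, and 1 had −1 or less (3.15%). Without the closest pair, 21 reached 1. The median of the members was 0.74, against 0.0046 for all units, and their range of −1.10 to 3.82 was wide. Highest were 8980 to 8996 (3.82), 9302 to 9352 (3.76) and 23005 to 23025 (3.28), and lowest was 8513 to 8531. Of the 14 members that were higher in *iss10Δ*, 11 were at 1 or more in *mmi1Δ mei4-P572*, which was 78.6% of the *iss10Δ* list and 47.8% of the 23. The same held for 13 of the 21 members higher in *cid14Δ* (61.9% of that list and 56.5% of the 23) and for 4 of the 9 higher in *sen1Δ* (44.4% and 17.4%). Each of these overlaps includes both units of the closest pair, which had 1.78 and 1.65 in *mmi1Δ mei4-P572*. The 23 members at 1 or more in *mmi1Δ mei4-P572* had a median of 1.21 in *iss10Δ*, and the other 28 had 0.39. The control strain of *mmi1Δ mei4-P572* differs from those of these mutants, but the dyes ran the same way in all. Probes 8980 to 8996, first in *mmi1Δ mei4-P572*, had only 0.26 as its mean in *iss10Δ*, and 106805 to 106855, first in *iss10Δ*, had 1.73 in *mmi1Δ mei4-P572*.

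In *rmn1Δ*, 11 members (21.6%) reached a log2 ratio of 1, where 1.34% of all units did, and 0 had −1 or less (0.669%). Without the closest pair, 9 reached 1. The median of the members was 0.54, against −0.011 for all units. The closest pair was highest, with 2.54 and 2.39, and 97346 to 97362 followed with 1.50. Of the 5 members that led in the choosing mutants, 9302 to 9352 had 1.31 here and the others lay between 0.40 and 0.73.

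The strand opposite to a member was not part of the choice. Over the 51 members it had a median log2 ratio of 0.23 in *rrp6Δ*, −0.067 in *red1Δ*, −0.057 in *pab2Δ* and 0.10 in *mtl1-17*, where the medians over all units were 0.25, −0.067, −0.12 and 0.084. The opposite strand of the members as a group was thus close to that of all units in these mutants, given as values without a test. In *iss10Δ*, 0 members were called on the opposite strand by limma, where 0.551% of all units were higher and 0.0787% lower. At an unadjusted p under 0.05, 6 members were higher and 6 lower there, where 3.03% and 13.5% of all units passed. In *cid14Δ* 9 were higher and 8 lower, where 14.6% and 18.5% of all units were called, and in *sen1Δ* 10 were higher and 5 lower, where 23.1% and 2.56% were. Without *cid14Δ* replicate 1 or 2, 8 or 9 members were called in *cid14Δ*, and without *sen1Δ* replicate 1 or 2, 3 or 5 in *sen1Δ*.

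Single members had large ratios on the opposite strand. For 54192 to 54216, which was chosen for mention after its values were seen, the opposite strand had 1.98 on both *cid14Δ* arrays (adjusted p = 9.7e-07) and 0.82 and 1.34 in *sen1Δ* (adjusted p = 0.00043), and its own strand had 0.49 and 0.25 in *cid14Δ* and −0.45 and −0.19 in *sen1Δ*. For 23005 to 23025 the opposite strand had 1.71 and 1.61 in *cid14Δ* (adjusted p = 1.9e-05), 2.76 and 3.15 in *rrp6Δ* and 2.29 and 2.78 in *red1Δ*. The reverse was seen at 134685 to 134755, whose opposite strand was lower in *cid14Δ* (−0.61 and −0.97, adjusted p = 0.0047) and in *sen1Δ* (−0.87 and −0.84, adjusted p = 0.0062), while its own strand was higher in both. At 119338 to 119348 the opposite strand had −1.76 and −1.59 in *red1Δ* but 1.80 and 2.04 in *rrp6Δ*, so the 2 choosing mutants went opposite ways there. Their control strains differ. This feature was variable, with −1.66 and 0.72 on the *iss10Δ* arrays and an SE of the fit of 0.42. On its own strand the unit had the lowest control signal of the members, 7.43 on the arrays of the mutants that did not choose them.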

How the data were processed

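Each of 16 tiling arrays, with 2 colours, set RNA of 1 of 9 mutants against that of a control strain. The authors deposited the scanner output of Agilent Feature Extraction (10.7.3.1 in the submitters' notes, 10.7.1.1 in the header of *rrp6Δ* replicate 1), whose processed intensity is background-subtracted, detrended and dye-normalized. The deposited log10 ratio was used only to check the direction, and the deposited series table of log2 ratios, which holds 0 where the software found no difference, only as an alternative. No genome coordinates were used here. The 5 to 258 outlier probes per array were left out, and no probe was saturated.

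Log2 of Cy5 over Cy3 was averaged over the probes of each unit, and each array was centred on its mean over the 2540 units. All arrays entered one limma fit (lmFit, eBayes) with the 9 mutants as groups, 7 residual and 4.96 prior degrees of freedom, two-sided, at an adjusted p of 0.05 (Benjamini-Hochberg over all units). The opposite strand was fitted likewise, after the same value, the mean over the units on their own strand, was subtracted from each array. Its own mean was therefore not set to 0. Over all units its median was 0.25 in *sen1Δ*, which enters the shares called there. The members and comparisons were chosen with earlier results of these data known. The named units were the 5 highest over the 4 choosing mutants, up to 6 called each way in each tested mutant, the 3 highest in each single array and the units at the limits. Units 102599 to 102621, 39442 to 39462 and 54192 to 54216, and the closest pair of members, were otherwise named after their values were seen.

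Alternatives concerned the centring (none, or each array's median over all tiling probes), the summary of a unit (its median probe), the background and normalization (normexp, offset 50, with loess), dim probes (kept where well above background in at least 2 arrays), the series table, the slide (random block or fixed term), a replicate block, a minimum log2 change of 1, and single arrays left out. The steps were tested on simulated data. Deviations of same-numbered replicates correlated between −0.57 and 0.69 over 21 pairs of mutants (median 0.079), so the numbers did not pair the arrays throughout. Replicate 2 of *rrp6Δ*, *red1Δ* and *pab2Δ* lay on the same slide. R 4.3.3, limma 3.58.1, statmod 1.5.0, Python 3.11.15, numpy 2.4.6, pandas 2.3.3 and matplotlib 3.10.9 were used.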

Additional observations from a re-analysis of the deposited data

How the results depend on the processing

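The rule gave 47 members without centring (45 of them among the 51), 57 with the median of all probes set to 0 (50), 45 with the median over probes (40), 46 after normexp and loess (43), and between 49 and 58 when an array was left out. Requiring an absolute log2 change of at least 1 left 12 members higher and 0 lower in *cid14Δ*, and 3 higher and 2 lower in *sen1Δ*. The member lower in *cid14Δ* was not called with the median of all probes set to 0 (0), and 2 were with the median over probes, the replicate block and the slide as a random block. In *sen1Δ*, 14 were lower with the median of all probes set to 0, 9 without centring and 3 after normexp and loess. With the slide as a random block, arrays of the same slide had a correlation of 0.51 after the mutants were fitted. The reported fit treats all arrays as independent. With the slide as a fixed term, 4 members differed between *iss10Δ* and *cid14Δ*, in a fit with 1 residual degree of freedom. The other comparisons could not be fitted with this term, and no slide held 2 of *iss10Δ*, *cid14Δ* and *sen1Δ*. The cause of these changes was not tested. For all units in *cid14Δ*, 200 were higher and 170 lower, and with the median of all probes set to 0 these were 244 and 83. The replicate block, with numbers that did not pair the arrays throughout, gave 18 members higher in *iss10Δ*, 22 in *cid14Δ* and 9 in *sen1Δ*.

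When an array was left out, between 9 and 27 members were higher in *iss10Δ*, 9 and 24 in *cid14Δ*, and 4 and 10 in *sen1Δ*. Between 0 and 1 were lower in *iss10Δ*, 0 and 3 in *cid14Δ*, and 0 and 10 in *sen1Δ*. Between 3 and 15 members differed between *iss10Δ* and *cid14Δ*, 6 and 29 between *iss10Δ* and *sen1Δ*, and 5 and 21 between *cid14Δ* and *sen1Δ*. On the opposite strand, between 0 and 2 were called in *iss10Δ*, 8 and 22 in *cid14Δ*, and 3 and 19 in *sen1Δ*. A mutant left with 1 array is assumed to vary like the others. Of the 59 calls of named units, 24 were kept under every alternative run and 46 under every one that kept all arrays. No named unit changed direction. A member's precision is limited by 2 arrays per mutant and, in the control channel, by signals nearer the background than in most units.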
